A study of Homo sapiens with 5 samples.

Results

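The genes described here are the 9 enzymes and partner proteins that write, copy and remove DNA methylation, namely DNMT1, UHRF1 and HELLS, DNMT3A, DNMT3B and DNMT3L, and TET1, TET2 and TET3. They were taken by gene name from a list of members, out of 64837 entries in the count files, and each was matched to 1 entry of GENCODE release 29. The cells were NCI-H209, an established human small-cell lung cancer (SCLC) line, grown either untreated (control, 3 libraries) or for 24 h below a Transwell insert with human brain microvascular endothelial cells (HBMECs), of which 2 libraries were made (co-cultured). The tumor cells were kept in RPMI-1640 with fetal bovine serum, and the HBMECs in RPMI-1640 with fetal bovine serum and Nu-serum. The medium used during co-culture is not stated, so a difference in supplement between the groups cannot be told apart from the HBMECs. No gene was altered in either group, and only the tumor cells below the insert were collected. Because 1 cell line was used and the labels do not say that the libraries came from separate cultures, the p-values measure the spread between these libraries, which may be technical. In bulk RNA of this kind, fewer cells of a type and less RNA per cell cannot be told apart.

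In mammalian DNA a methyl group sits mostly on the cytosine of a CG pair and tends to keep the gene nearby silent. DNMT1 copies the mark onto the new strand after replication, guided by UHRF1, which recognizes CG pairs methylated on one strand, while HELLS moves nucleosomes so that the enzymes can reach the DNA. DNMT3A and DNMT3B place new marks, and DNMT3L, which has no catalytic activity of its own, assists them in germ cells. The TET enzymes oxidize the methyl group, using oxygen, iron and 2-oxoglutarate, and base excision repair then restores an unmodified cytosine.

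The total on genes was 15457071 to 19157348 counts per library, and 3 counts, taken as the floor, corresponded to 0.157 to 0.194 CPM, the counts of a gene scaled to a common library size. The share of unmapped reads was 8.13% to 8.48% in control against 15.9% and 16.8% after co-culture, a difference whose part in the results was not tested. Of the 7 SCLC markers, 6 passed the filter on low counts, with 3 higher and 1 lower after co-culture. These were 50% and 16.7% of those tested, against 18.4% and 15.0% of all genes tested. The granule protein gene CHGA had at most 1 count in any library. Of 20 endothelial markers, 8 had at most 3 counts in every library, with PLVAP and ECSCR at 0 throughout. Their summed level was 11.9 to 29.2 CPM in control and 27.7 to 33.0 CPM in the co-cultured group. Of the 10 that were tested 2 were higher, ESAM and ANGPT2, a share of 20% against 18.4% of all genes tested. The defining markers PECAM1 and CDH5 had at most 18 and 11 counts in any library. VWF had 159, 75 and 87 counts in control and 87 and 90 after co-culture. KDR had 37, 27 and 2 counts in control and 12 and 4 after co-culture. For TEK these were 31, 24 and 0 against 6 and 3, and for NOS3 41, 39 and 4 against 3 and 7. None of these 4 was called. ANGPT2, a secreted vascular factor, contributed the most to the co-cultured sum, with 16.4 ± 3.59 CPM (SD, n = 2).

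In the co-cultured cells DNMT3B was lower and TET3 and TET2 were higher, while DNMT1, UHRF1, HELLS and DNMT3A did not pass the test in either direction. TET1 lay above control in both co-cultured libraries but missed the threshold, and DNMT3L was at the floor. Of the 9 members, 8 passed the filter on low counts, and 3 of these were called at an adjusted p under 0.05. The test was the quasi-likelihood test of edgeR, adjusted by Benjamini-Hochberg over 20360 genes. Over all genes tested that share was 33.4%, with 18.4% higher and 15.0% lower, so the number of members called was near the background. With upper-quartile normalization 43.9% of all called genes were higher, against 55.1% with the normalization used here, and the same 3 members were called. At the study's criterion, read here as a change of over 1 on the log2 scale and an unadjusted p under 0.05, only DNMT3B of the 8 was called. All genes gave 10.5% at that criterion, 5.44% higher and 5.01% lower. The libraries of the groups did not overlap for 5 of the 8, with 4 above control and 1 below, against 59.4% of all genes, 29.4% above and 30.0% below. Without control replicate 1 the number of members called was 6, with DNMT1, UHRF1 and TET1 added, while the share called over all genes was 49.5%. Without co-cultured replicate 1 or 2 it was 2, because TET2 lost its call, while the share over all genes was 12.8% or 14.2%.

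**Figure D1:**
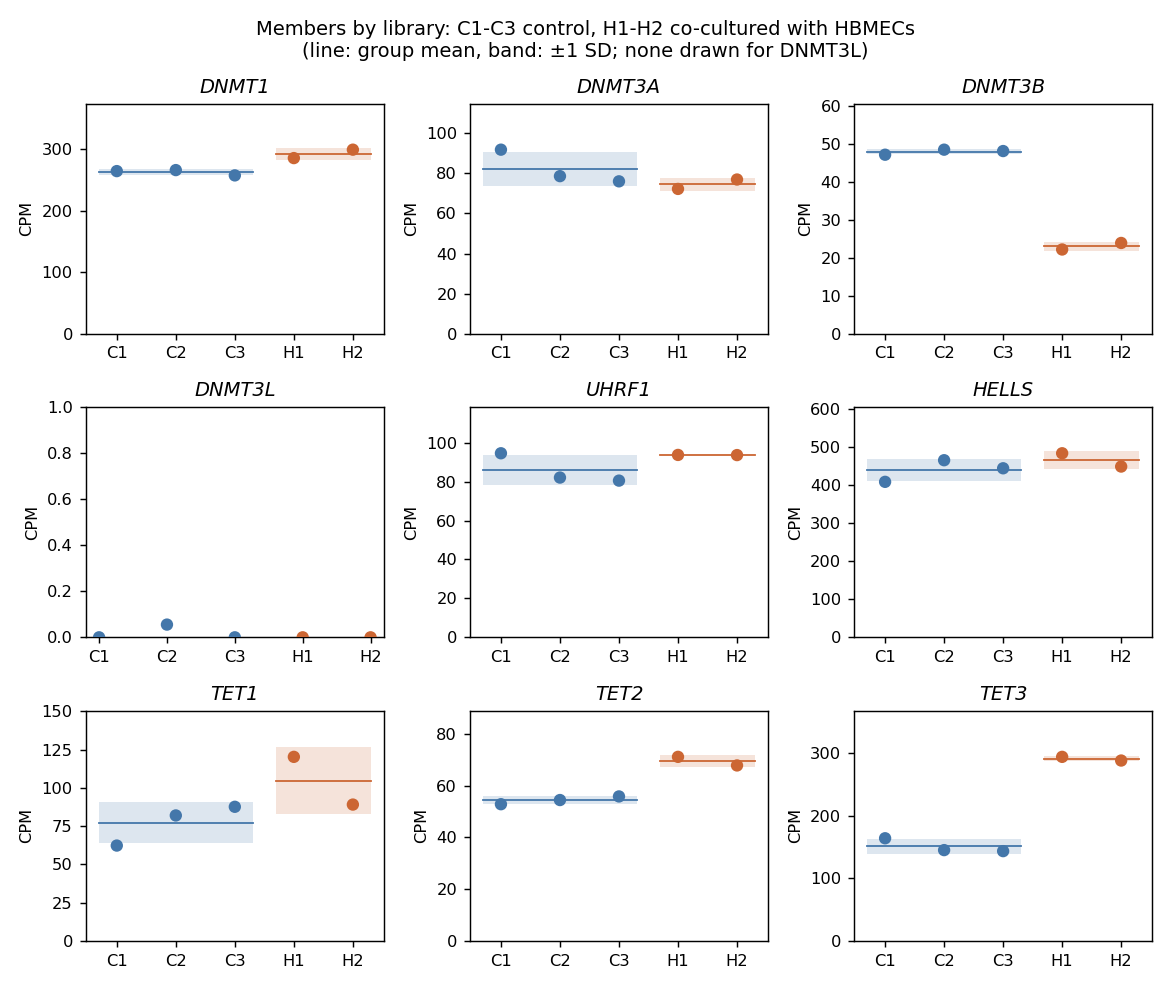
Level of each member in CPM (linear axis from 0) in the 3 control libraries (C1 to C3, blue) and the 2 co-cultured libraries (H1 and H2, orange), with the group mean as a line and 1 SD as a band. DNMT3B falls from about 47.9 to 23.1 CPM and TET3 rises from 151 to 291 CPM without overlap, while the groups overlap for DNMT3A, UHRF1 and HELLS.

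Among the enzymes that place new methyl groups, DNMT3B was the member that fell. DNMT3B (ENSG00000088305.18, chromosome 20 from 32762385 to 32809356 on GRCh38, plus strand) had 887, 877 and 940 counts in control, and co-culture gave 406 and 362. On the CPM scale these were 47.2, 48.5 and 48.1 in control and 22.2 and 23.9 in the co-cultured cells. Both co-cultured libraries lay far below all 3 control libraries, which differed little from each other. The level was 0.481 times that of control, which is -1.06 on the log2 scale with a standard error of 0.089 (adjusted p = 8.31e-05, edgeR). It ranked 171st by p among the 20360 genes tested.

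DNMT3A, its paralog, is encoded on chromosome 2 from 25227855 to 25342590 (ENSG00000119772.16, minus strand). It had 91.8, 78.6 and 76.0 CPM in control and 72.2 and 76.9 CPM in the co-cultured cells. The groups overlapped, with control replicate 1 above the other 4 libraries. Its log2 fold change was -0.14 with a 95% interval of -0.36 to 0.08 (adjusted p = 0.301, edgeR), so a fall of the size of that of DNMT3B lay outside the interval. Within each library, where scaling plays no part, the ratio of DNMT3B to DNMT3A counts was 0.514, 0.617 and 0.633 in control and 0.307 and 0.311 in the co-cultured cells. The ratio was lower in both co-cultured libraries than in any control library, but no exact permutation test of 3 libraries against 2 reaches a p under 0.1.

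DNMT3L (ENSG00000142182.8, chromosome 21 from 44246339 to 44262216, minus strand) had 0, 1 and 0 counts on its own strand in control and 0 in both co-cultured libraries. It was therefore at the floor in every library, and no fold change is given. On the opposite strand the same gene had 26, 42 and 39 reads in control and 14 and 8 in the co-cultured libraries. An antisense transcript, AP001059.1, is annotated within DNMT3L from 44250813 to 44251520 with counts of 12, 16 and 13 in control and 5 and 3 after co-culture. Counted without regard to strand, DNMT3L would have been called lower with a log2 fold change of -1.44 (adjusted p = 0.0404, edgeR), although its own strand carried 1 count in all 5 libraries together.

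The RefSeq promoter table holds 1 start for DNMT3B, at an annotated GENCODE transcript start within the gene and not at its 5′ end. The 250 bases before it are shown because DNMT3B was the member that fell, from chr20:32779602-32779851 on the plus strand of GRCh38.p14.
DNMT3B: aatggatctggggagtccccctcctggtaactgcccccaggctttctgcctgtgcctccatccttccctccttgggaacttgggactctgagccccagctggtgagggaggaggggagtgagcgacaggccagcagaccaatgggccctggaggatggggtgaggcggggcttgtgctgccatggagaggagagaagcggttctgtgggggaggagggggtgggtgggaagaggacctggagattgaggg
The full window of 300 bases held 3 CG pairs, the fewest of the 19 windows of the members, against a median of 14 over 35116 promoters. The 5′ end of the gene was not examined, and which start these cells use was not measured. The count therefore describes this window only.

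The 3 maintenance genes did not pass the test in either direction. DNMT1 (ENSG00000130816.15, chromosome 19 from 10133345 to 10231286, minus strand) had 264, 266 and 257 CPM in control and 285 and 299 CPM in the co-cultured cells. The lower of the co-cultured values exceeded the highest control value. The log2 fold change was 0.15 with a 95% interval of -0.01 to 0.32 (adjusted p = 0.140, edgeR). Without control replicate 1 it was 0.16 with an adjusted p of 0.0262.

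UHRF1 (ENSG00000276043.4, chromosome 19 from 4903080 to 4962154, plus strand) had 94.5, 82.1 and 80.5 CPM in control and 93.7 and 93.6 CPM in the co-cultured cells. Control replicate 1 was the highest of all 5 libraries and the other 2 control libraries were the lowest. Its log2 fold change of 0.13, with a 95% interval of -0.07 to 0.33, had an adjusted p of 0.302 with all libraries and of 0.00855 without control replicate 1, where it was 0.21. HELLS (ENSG00000119969.14, chromosome 10 from 94501434 to 94613905, plus strand) had 409, 466 and 444 CPM in control and 484 and 449 CPM in the co-cultured cells, with overlapping groups. Its log2 fold change was 0.09 with a 95% interval of -0.11 to 0.28 (adjusted p = 0.486, edgeR). Thus for these 3 genes the intervals excluded a change as large as that of DNMT3B or TET3, but not a small rise.

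The ratio of UHRF1 to DNMT1 counts was 0.309 to 0.358 in control and 0.313 and 0.328 in the co-cultured libraries. That of HELLS to DNMT1 was 1.55 to 1.75 in control and 1.50 and 1.70 in the co-cultured libraries. Both ratios overlapped between the groups. In the annotation DNMT1 overlaps S1PR2 and HELLS overlaps TBC1D12 on the same strand, and reads over shared exons were counted for neither gene.

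A short motif that the choice of members did not use occurred in a promoter window of each maintenance gene. The letters TTTNGCGC, a form of the site of E2F factors, were searched on both strands of all 300-base promoter windows of the RefSeq table. They occurred in 1.79% of 35116 windows and in 3 of the 19 windows of the members, namely the only window of DNMT1, the only window of HELLS and 1 of 3 windows of UHRF1. The matches are shown with 8 bases on either side and the motif, read on either strand, in capitals, from chr19:10194940-10194963 on the minus strand, chr19:4909976-4909999 on the plus strand and chr10:94545704-94545727 on the plus strand of GRCh38.p14.
DNMT1: cggtttccGCGCGAAAagccgggg
UHRF1: gagcccgaTTTCGCGCgccctgag
HELLS: cgcaagctGCGCCAAAtctcgcgc
The windows with a match held 30 CG pairs for DNMT1, 40 for UHRF1 and 22 for HELLS, against a median of 14 over all promoters. The motif itself contains a CG pair, and promoters of like CG content were not compared. A match says only that these letters are present, and no binding was measured.

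Of the demethylating enzymes, TET3 showed the largest rise. TET3 (ENSG00000187605.15, chromosome 2 from 73986404 to 74108176, plus strand) had control counts of 3086, 2625 and 2803, against 5383 and 4365 after co-culture. The CPM values were 164, 145 and 144 in control and 294 and 288 in the co-cultured cells. Both co-cultured libraries stood well above all control libraries. The level was 1.93 times that of control, or 0.95 on the log2 scale with a standard error of 0.084 (adjusted p = 0.000102, edgeR), just under the fold of the study's criterion.

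TET2 (ENSG00000168769.13, chromosome 4 from 105145875 to 105279816, plus strand) had 52.9, 54.5 and 55.9 CPM in control and 71.2 and 67.8 CPM in the co-cultured cells, again without overlap. It rose by 0.35 on the log2 scale (standard error 0.077, adjusted p = 0.00732, edgeR). Without co-cultured replicate 1 the log2 fold change was 0.33 with an adjusted p of 0.0937, and without co-cultured replicate 2 it was 0.39 with an adjusted p of 0.0534. TET1 (ENSG00000138336.8, chromosome 10 from 68560656 to 68694482, plus strand) had 62.3, 82.0 and 87.7 CPM in control and 120 and 89.1 CPM in the co-cultured cells. The second co-cultured library exceeded the highest control library only slightly. TET1 had the largest standard error of the members tested, 0.16, with a log2 fold change of 0.44, a 95% interval of 0.08 to 0.79 and an adjusted p of 0.0590 from edgeR. Over the alternatives tried, its adjusted p ran from 0.000125 to 0.486, with DESeq2 at 0.0333.

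The ratio of TET2 to TET3 counts within a library was 0.322, 0.375 and 0.389 in control and 0.242 and 0.235 in the co-cultured cells, lower in both without overlap. That of TET1 to TET3 was 0.380 to 0.611 in control and 0.409 and 0.309 in the co-cultured cells, which overlapped. TET2 and TET3 thus did not rise in proportion in these libraries.

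**Figure D2:**
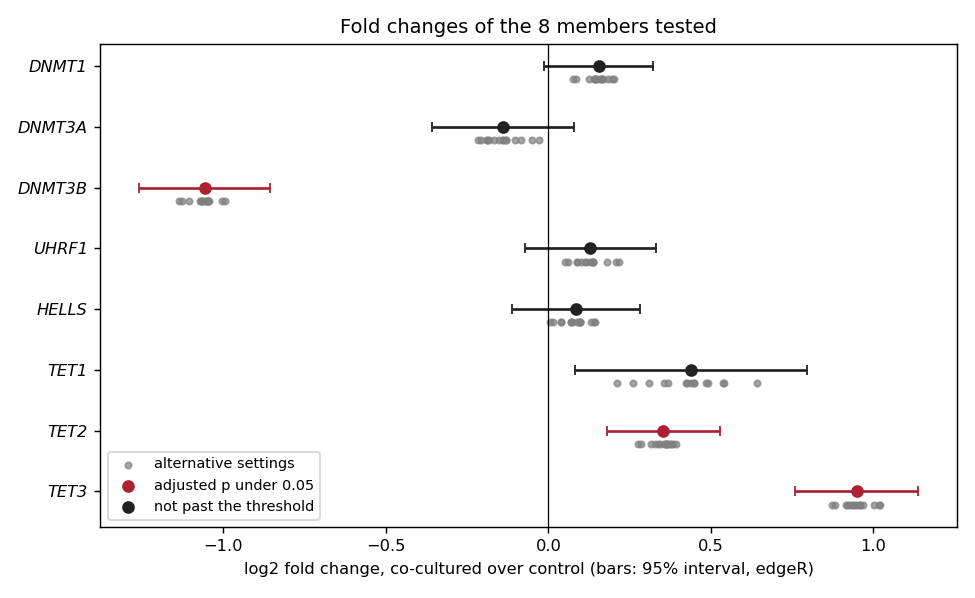
Log2 fold change of the co-cultured over the control libraries for the 8 members tested, with its 95% interval from edgeR (horizontal bars) and the values under each of the alternative settings as small grey points below. DNMT3B lies between -1.14 and -0.99 and TET3 between 0.87 and 1.02 over the alternatives, on opposite sides of 0.

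The 250 bases before a RefSeq start are shown for the TET genes that rose. The letters ACGTG, a form of the core of the site of hypoxia-inducible factors, are in capitals on either strand. Other forms of that core were not searched. A CACGTG, which is also the site of basic helix-loop-helix factors, contains these letters once on each strand. The TET3 window is chr2:73984660-73984909, upstream of the span given in GENCODE, and the TET2 window is chr4:105145625-105145874, at the first base of the gene, both on the plus strand of GRCh38.p14.
TET3: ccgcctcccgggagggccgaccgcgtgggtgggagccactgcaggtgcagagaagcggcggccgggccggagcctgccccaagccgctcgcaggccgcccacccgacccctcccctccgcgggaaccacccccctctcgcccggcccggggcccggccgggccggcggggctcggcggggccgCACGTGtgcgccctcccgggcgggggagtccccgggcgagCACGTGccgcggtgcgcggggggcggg
TET2: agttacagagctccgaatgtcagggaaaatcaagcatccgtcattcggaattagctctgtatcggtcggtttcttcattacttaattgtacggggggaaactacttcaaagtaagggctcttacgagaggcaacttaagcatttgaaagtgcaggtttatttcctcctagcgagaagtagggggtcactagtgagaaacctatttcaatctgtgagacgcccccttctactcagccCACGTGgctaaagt
ACGTG occurred in 1 of 2 TET3 windows, both TET2 windows and 2 of 6 DNMT3A windows, and in none of those of the other members with an entry. This was 5 of 19 windows, 26.3%, close to the 21.4% of all promoters that hold it. The 2 DNMT3A windows with the letters overlap each other. The TET3 window with the letters has its start 1494 bases from the nearest GENCODE transcript start. That of the TET3 window without them is 21 bases from one. DNMT3A, which also holds the letters, was not called.

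Levels of different genes were compared per kilobase of exon. In control the order was HELLS with 43.3 ± 2.83 CPM per kb (SD, n = 3), DNMT1 with 26.8 ± 0.467, UHRF1 with 16.7 ± 1.50, TET3 with 12.3 ± 0.932, DNMT3B with 10.4 ± 0.148, TET1 with 8.33 ± 1.43, DNMT3A with 6.83 ± 0.705 and TET2 with 3.30 ± 0.0914. DNMT3L came last, at the floor. Only the neighbours TET1 and DNMT3A overlapped in their ranges. In the co-cultured cells TET3, with 23.7 ± 0.339 CPM per kb (SD, n = 2), came before UHRF1 with 18.2 ± 0.0108. DNMT3B, with 4.98 ± 0.263, dropped from 5th to 7th place, behind TET1 and DNMT3A. Exon length was the union over all annotated transcripts, so a gene with long exons that these cells do not use appears lower than it is.

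**Figure D3:**
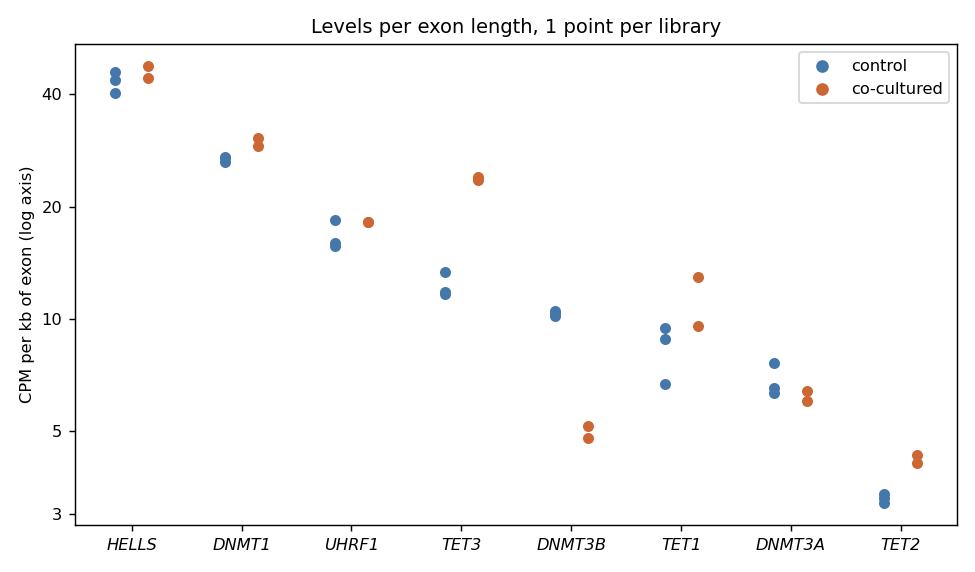
Level of 8 members in CPM per kb of exon (log axis), 1 point per library, control in blue and co-cultured in orange, ordered by the control mean. HELLS and DNMT1 are highest in both groups, TET3 moves above UHRF1 in the co-cultured libraries and DNMT3B moves to between 4.79 and 5.16.

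Reads on the opposite strand were checked because a directional library should hold few of them from the gene itself. Over all genes tested, their median share was 0.379% to 0.566% per library. The spread was wide, and 12.4% to 13.3% of these genes had a share over 25%, far above that of any member tested. For DNMT3A they numbered 45, 29 and 17 in control and 15 and 9 in the co-cultured libraries, and for TET2 44, 33 and 8 in control and 19 and 7 in the co-cultured libraries. As a share of both strands, TET2 had 4.24% (95% Wilson interval 3.17% to 5.64%) in control replicate 1 and 3.24% (2.32% to 4.52%) in control replicate 2, against 0.677% to 1.44% in the other 3 libraries. DNMT1 had 1.06% and 0.620% in the same control libraries and at most 0.119% elsewhere. The antisense gene TET2-AS1 had at most 1 count in any library. For DNMT3B, UHRF1, HELLS, TET1 and TET3 the share was at most 0.233% in every library. The intervals cover counting error only.

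After the opposite-strand counts of every gene were subtracted, the log2 fold change of DNMT3A was -0.14, that of TET2 0.36 and that of DNMT1 0.15, against -0.14, 0.35 and 0.15 without subtraction. With control replicate 3 as the only control library, DNMT3B had a log2 fold change of -1.07, TET3 of 1.02 and TET2 of 0.31, and all 3 had an adjusted p under 0.05 in edgeR, the largest being 0.00318 for TET2. UHRF1 and TET1 were also called in that fit, which made 5 members, while 40.5% of all genes tested were called. That fit assumes that the lone control library varies as the others do. The source of the opposite-strand reads was not tested.

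**Figure D4:**
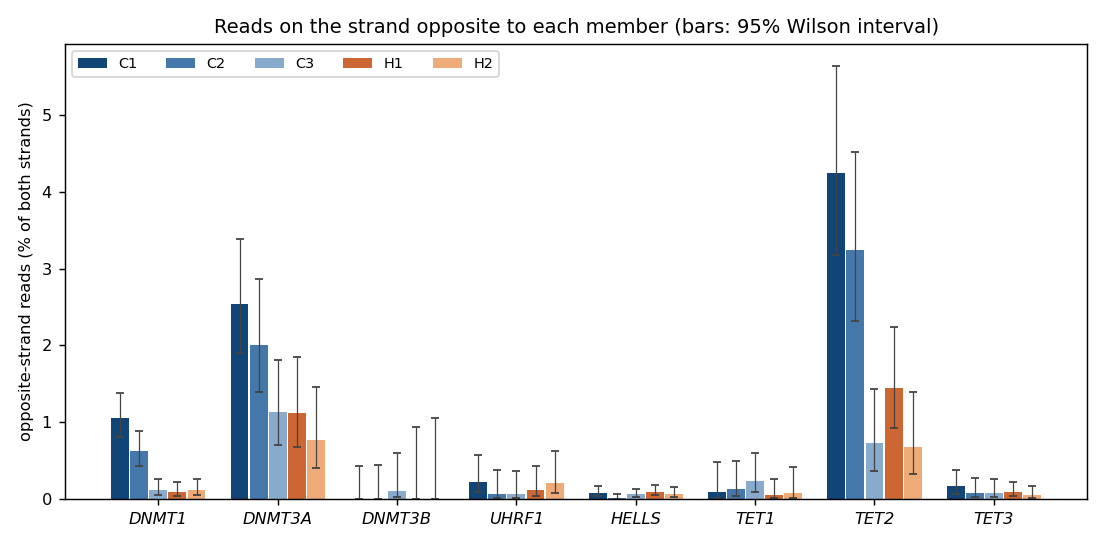
Reads on the strand opposite to each of 8 members as a percentage of the reads on both strands, 1 bar per library (C1 to C3 control in blue, H1 and H2 co-cultured in orange), with 95% Wilson intervals. DNMT1, DNMT3A and TET2 stand out in C1 and C2, up to 4.24% for TET2, while the other members stay at or below 0.233%.

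Other genes of the pathway were read from the same fit, in which 33.4% of all genes were called, 18.4% higher and 15.0% lower. Of the tested genes, 54.5% of the maintenance partners, 62.5% of the TET partners and cofactor enzymes and 69.2% of the excision genes were called. The shares were 23.1% for the guides of new methylation, 41.7% for the readers and 22.2% for the S-adenosylmethionine cycle. Of the 12 maintenance partners, 11 were tested, and 2 were higher and 4 lower. Their median on the log2 scale was -0.17, against -0.03 over all genes tested. PCNA, the sliding clamp that carries DNMT1 to the replication fork, rose from 191 ± 20.4 CPM in control (SD, n = 3) to 275 ± 3.14 CPM after co-culture (SD, n = 2). CDCA7, which recruits HELLS to chromatin, fell from 52.6 ± 1.21 CPM in control (SD, n = 3) to 36.2 ± 0.911 CPM after co-culture (SD, n = 2), and UHRF2, the paralog of UHRF1, had a log2 fold change of -0.40. EHMT2 was listed at 0 in every library, and no level is read from that.

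Of 13 genes that guide or accompany new methylation, 2 were higher and 1 lower, with a median of 0.10 on the log2 scale. CXXC1, which binds unmethylated CG pairs, fell by 0.60 on the log2 scale, while KDM2A rose by 0.39 and NSD1, a histone methyltransferase that marks regions for DNMT3A, by 0.27. Of the 12 readers of methylated DNA and their co-repressors that were tested out of 14, 3 were higher and 2 lower (median -0.02). ZBTB38, which binds methylated DNA, rose from 21.2 ± 4.84 CPM in control (SD, n = 3) to 41.8 ± 0.591 CPM after co-culture (SD, n = 2), SETDB1 fell by 0.53 on the log2 scale and MBD2 rose by 0.51.

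The list of TET partners and of enzymes that set the levels of 2-oxoglutarate and its competitors had 7 of 16 genes higher and 3 lower (median 0.29 on the log2 scale). SIRT1, a deacetylase, had the smallest p and rose from 82.0 ± 5.19 CPM in control (SD, n = 3) to 166 ± 0.604 CPM after co-culture (SD, n = 2). On the log2 scale SIRT1 rose by 1.02 (adjusted p = 5.58e-05, edgeR). FH, which removes fumarate, an inhibitor of the TET enzymes, rose by 0.85 and IDH1, which makes 2-oxoglutarate, by 0.80 on the log2 scale. The 3 lower genes were DCAF1, SDHA and IDH3G, with log2 fold changes of -0.40, -0.39 and -0.39. These 3 were named after their values were seen. A list of 13 genes of base excision was not limited to those that act on products of the TET enzymes. Of these 13, 3 were higher and 6 lower (median -0.27). LIG3, OGG1 and APEX1 fell by 0.60, 0.83 and 0.78 on the log2 scale. The 3 higher genes were XRCC1, TDG, the glycosylase that removes oxidized methylcytosine, and PARP1, with log2 fold changes of 0.49, 0.41 and 0.31. XRCC1, TDG and PARP1 were named after their values were seen.

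In the cycle that supplies the methyl donor S-adenosylmethionine, 9 of 12 genes were tested and 2 passed the test, both lower (median -0.17 on the log2 scale). MAT2A, which makes the donor, fell from 409 ± 53.8 CPM in control (SD, n = 3) to 295 ± 3.89 CPM after co-culture (SD, n = 2), and AMD1, which uses it for polyamines, had a log2 fold change of -0.58.

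**Figure D5:**
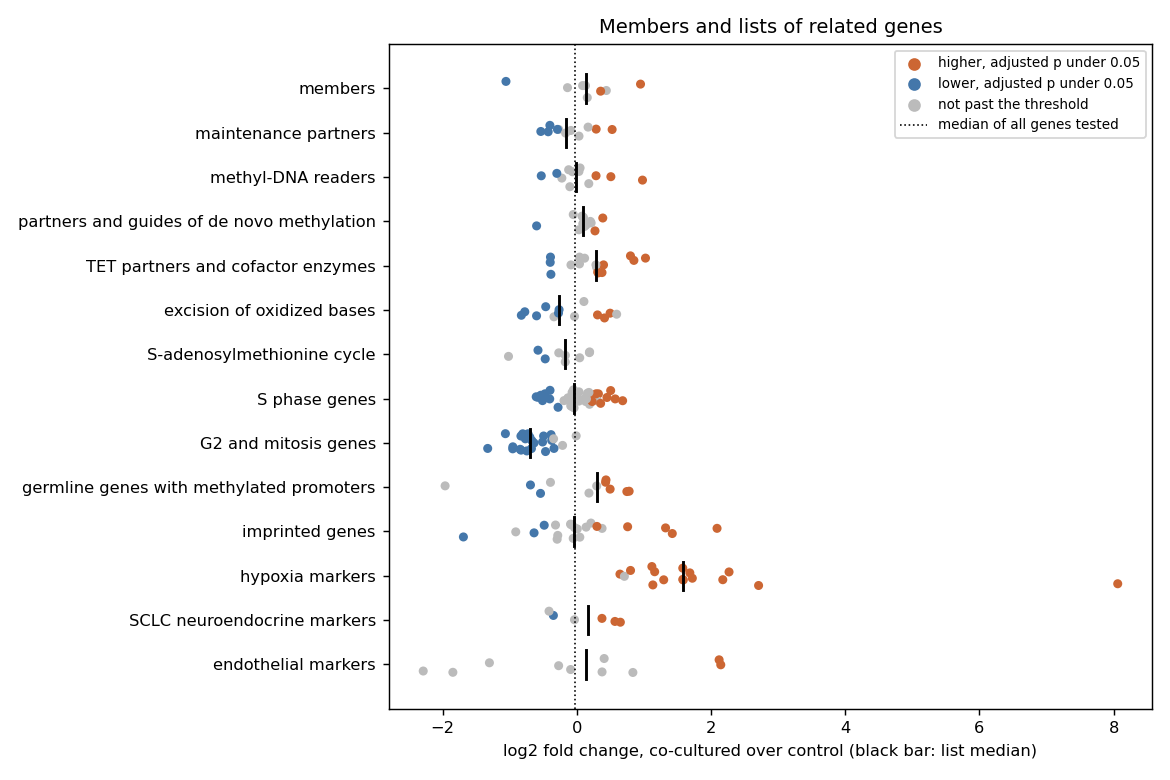
Log2 fold change of each tested gene of the members and of 13 lists of related genes (points, orange higher and blue lower at an adjusted p under 0.05, grey not past the threshold), with the list median as a black bar and the median of all genes tested, -0.03, as a dotted line. The hypoxia markers lie to the right with a median of 1.58 and the G2 and mitosis genes to the left with a median of -0.70, while the lists of the methylation pathway have medians between -0.27 and 0.29.

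Genes of G2 and mitosis and of the response to low oxygen moved with the same contrast, and their part in the changes of the members was not tested. Of 39 S phase genes tested, 9 were higher and 8 lower (23.1% and 20.5%, against 18.4% and 15.0% of all genes), and their median of -0.04 was close to that of all genes, with MCM5 and MCM7, subunits of the replicative helicase, lower by -0.61 and -0.54 on the log2 scale and RFC2, of the clamp loader, higher by 0.50. Of 25 genes of G2 and mitosis, 22 passed the test, all 22 lower, with a median of -0.70. Their summed level was 5294 to 6303 CPM in control and 3849 and 3853 CPM in the co-cultured libraries. CDC25C, KIF23 and TTK fell by 1.33, 0.95 and 0.75 on the log2 scale. Of 16 hypoxia markers, 15 passed the test, all 15 higher, with a median of 1.58. VEGFA rose by 1.59 and PGK1 and LDHA each by 1.58 on the log2 scale.

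The genes whose pattern over the 5 libraries was nearest to that of each called member were found by the root mean square difference of centred log2 CPM among protein-coding genes with a mean of at least 1 CPM. For DNMT3B these were WDR27, FAM83F and EIF3G, with differences of 0.0215, 0.0370 and 0.0401. For TET3 they were NFKBIZ, LONP1 and TMEM38B, with differences of 0.0192 to 0.0277, and for TET2 they were SEC14L1, ARL10 and SLC9A7, with differences of 0.0166 to 0.0173. WDR27 went from 227 ± 3.94 CPM in control (SD, n = 3) to 112 ± 3.70 CPM after co-culture (SD, n = 2) and NFKBIZ from 23.3 ± 2.18 CPM in control (SD, n = 3) to 45.5 ± 0.865 CPM after co-culture (SD, n = 2). With 5 libraries in 2 groups, this likeness rests mainly on the difference between the groups.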

How the data were processed

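RNA-Seq libraries from 3 control and 2 co-cultured samples of NCI-H209 were analysed, grouped by their titles. Per the labels, rRNA-depleted RNA was made into directional libraries, and the submitters' processing notes name CASAVA 1.8, STAR 2.6.1b, DESeq2 and GRCh38. The authors deposited raw counts per gene in 3 columns (without regard to strand and for each strand). Counts of the strand expected for the kit were used as deposited. Their total is the depth, and lines for unassigned reads were left out. A further deposited table gives the authors' pooled mean signal per group and their own fold changes and p-values. Only its gene names were used.

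Low counts were filtered with filterByExpr (edgeR 4.0.16, R 4.3.3), which left 20360 genes. These were scaled by TMM and compared with the quasi-likelihood test of edgeR with Benjamini-Hochberg adjustment. CPM are TMM-scaled. The common dispersion was 0.0103. Standard errors were derived from F and the fold change. The floor is 3 counts. Positions and exon lengths are from GENCODE release 29, promoter windows from RefSeq (GRCh38.p14), which had entries for 8 members and none for DNMT3L. Plots used matplotlib 3.10.9.

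The members and the 13 lists (254 entries, from general knowledge) were chosen with earlier results of these data known. Named are all members, up to 3 called genes with the smallest p per list, and the 3 genes nearest in pattern to each called member. A gene that this rule names is not reported here. In simulated data for this comparison, 127 of 191 genes changed by 1 on the log2 scale were called, with 11 unchanged genes, of 19816 genes in that step. In the data 33.4% of genes were called, a far larger part than was changed in the simulation. Its rates therefore need not hold for the data. Alternatives were DESeq2 1.42.0, 2 other normalizations, 2 other filters, a replicate block, each library left out, unstranded counts, subtraction of opposite-strand counts, control replicate 3 alone, and protein-coding genes only. No replicates agreed within sampling noise: chi-square over its degrees of freedom was 4.60 for the co-cultured pair and 6.34 to 18.1 for the control pairs, highest for pairs with control replicate 1.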

Additional observations from a re-analysis of the deposited data

How the results depend on the processing

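Under the 15 alternatives, no member changed direction, and DNMT3B, TET3, DNMT3A and HELLS kept their side of the threshold in each. TET1 passed the threshold in 7 of the 15, with log2 fold changes of 0.31 and 0.54 without control replicate 1 and 3, 0.54 with a replicate block, and with DESeq2 (0.45), with at least 1 count in any library (0.44), with unstranded counts (0.49) and without control replicates 1 and 2 (0.26), where UHRF1 also passed it (0.22). With each library left out in turn, the log2 fold changes ran from 0.21 to 0.64 for TET1, 0.33 to 0.39 for TET2, 0.13 to 0.20 for DNMT1 and 0.089 to 0.21 for UHRF1. The members called numbered 2 to 6 when single libraries were left out, and 5 with unstranded counts, DNMT3L among them, or without control replicates 1 and 2. Over all genes the called number was 6809, and 2734 to 9897 with single libraries left out, the lowest without co-cultured replicate 1 and the highest without control replicate 1. The number at the study's criterion was 2128, against 1280 with at least 10 counts in every library and 1257 over protein-coding genes only, and 1884 to 2476 with single libraries left out. Both of these alternatives tested fewer genes (17415 and 13699). The causes of the other changes were not tested. With a replicate block 4824 genes were called, and TET1 passed the threshold with 0.54. The labels give the groups shared replicate numbers but no shared origin, and deviations of same-numbered libraries from their group means correlated at -0.11 and -0.07, so the numbers were not taken as pairs. Fewer than 3 counts in a library could not be told from 0, which limits DNMT3L alone among the members.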

Other observations

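Genes whose promoters are known to be silenced by methylation outside the germline were mostly not detected. Of 37 such genes, 21 never exceeded 3 counts in a library, and 11 of these, DAZL among them, were at 0 throughout. Reads of genes with near-identical copies may have been lost in counting, so silence is not read from a 0. Of the 11 tested, 5 rose and 2 fell after co-culture (edgeR, adjusted p under 0.05), and their median was 0.30 on the log2 scale. The shares were 45.5% higher and 18.2% lower, against 18.4% and 15.0% of all genes tested. MAGEA3, MAGEA4, MAGEA6 and MAGEA12, all of the MAGEA family, were among the 5 that rose. MAGEA10 of the same family was not called (log2 fold change 0.30, adjusted p = 0.504, edgeR). The 2 that fell were SSX1 and TEX15, with log2 fold changes of -0.69 and -0.54. MAGEA4, MAGEA10, MAGEA12, SSX1 and TEX15 were named after their values were seen. MAGEA3 had 55.9 ± 6.04 CPM in control (SD, n = 3) and 96.0 ± 5.42 CPM after co-culture (SD, n = 2). MAGEA6 had 46.9 ± 5.57 CPM in control and 78.6 ± 4.28 CPM after co-culture, but these genes are near-identical copies and their reads may have been split or lost. MOV10L1, a helicase of the piRNA pathway, rose by 0.43 on the log2 scale. DNA methylation itself was not measured.

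Of 29 imprinted genes, which are expressed from the copy of a single parent under the control of methylation, 21 were tested, with 5 higher, 3 lower and a median log2 fold change of -0.04. The shares were 23.8% higher and 14.3% lower, near the 18.4% and 15.0% of all genes tested. GRB10, an adaptor of growth factor receptors, rose, with 87.4 ± 3.87 CPM in control (SD, n = 3) and 234 ± 28.7 CPM after co-culture (SD, n = 2), and MAGEL2 rose by 1.32 on the log2 scale. MEST fell by 1.69 on the log2 scale, with 481 ± 108 CPM in control and 149 ± 8.70 CPM after co-culture. The counts do not tell the parental copies apart.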
